A study of Mus musculus with 4 samples.

Results

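Notch receptors, their ligands and genes of the target families Hes and Hey were followed in single mammary cells, as a set of 9 genes out of the 31053 genes counted. The set is defined by role, with no measured value in its rule, although earlier results of these data were known when it was drawn up: 3 receptors (Notch1, Notch2 and Notch3), 3 ligands (Dll1, Jag1 and Jag2) and 3 genes of the Hes and Hey families (Hes1, Hey1 and Hes6). All 4 mice were FVB, homozygous for a floxed Tfap2c allele and carriers of Krt5-CreERT2, a Cre recombinase that basal mammary cells make from the Krt5 promoter and that 4-hydroxytamoxifen (4OHT) activates. From week 4 after birth 2 mice received corn oil, the vehicle, and 2 received 4OHT, and the fourth mammary glands were taken at week 9. The series asked what loss of Tfap2c, which encodes the transcription factor AP-2γ, does to mammary stem cells, and 1 droplet library of 3′ ends was made per mouse. No mouse without Cre and no 4OHT-treated mouse without the floxed allele was analysed here, so an effect of 4OHT or of active Cre cannot be told apart from one of the deletion.

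Notch receptors sit in the membrane of one cell and bind Delta-like or Jagged ligands on a neighbouring cell. Binding lets a sheddase and then the gamma-secretase complex cut the receptor, and the freed inner part enters the nucleus, joins the DNA-binding protein RBPJ and switches on repressor genes of the Hes and Hey families. In the mammary gland the pathway is known for its part in the choice of the luminal fate, with ligands on the outer, myoepithelial (basal) layer and receptors on the inner, luminal layer.

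Cells were assigned to classes from the counts of unique molecular identifiers (UMIs, 1 per captured transcript) of a few marker genes, none of them a member of the set. Among 18223 cells, 7028 were basal by their Krt5, Krt14, Krt17 and Acta2 counts. Of the cells with mostly Krt8, Krt18 and Krt19 counts, 1168 were hormone-sensing luminal cells by Ly6d, Fxyd2 and Gpx3, and the other 5629 were luminal progenitor cells. A further 260 cells were endothelial-like and 43 leukocyte-like, 391 had too few UMIs, and 3704 fell in none of these classes. Levels below are in CPM, counts scaled to a common total per sum of cells. The classes were checked on markers that the rule did not use. Of 6 such basal, 5 luminal progenitor and 7 hormone-sensing markers, every one was higher in its own class in all 4 libraries than in any library of the other 2 classes. The 6 basal markers summed to between 3802 and 5036 CPM in basal cells and to at most 238 CPM in either luminal class. The 5 luminal progenitor markers summed to between 1526 and 2143 CPM in their class and to at most 322 CPM elsewhere, and the 7 hormone-sensing markers to between 1350 and 2851 CPM in theirs and to at most 177 CPM elsewhere. Libraries held between 17351950 and 22017878 UMIs, and the sums per class and library between 1297128 and 8402376. Of the 18223 cell barcodes, 155 occurred in more than 1 library.

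All 9 members had the same gene identifier in the deposited tables and in GENCODE M21 on GRCm38, where they lie on chromosomes 1, 2, 3, 12, 16 and 17. Notch1 (ENSMUSG00000026923) spans chr2:26457903-26516663 and Jag1 (ENSMUSG00000027276) chr2:137081456-137116644, both on the minus strand. Notch3 (ENSMUSG00000038146) spans chr17:32120820-32166852, and Dll1 (ENSMUSG00000014773) chr17:15367354-15376872, on the minus strand. Hes1 (ENSMUSG00000022528) lies on the plus strand at chr16:30064384-30067796, and Hey1 (ENSMUSG00000040289) on the minus strand at chr3:8663359-8667256. Notch1 and Notch3 overlap transcripts of the other strand at their 3′ ends (0610009E02Rik and Gm13568, and Gm17276), and Dll1 overlaps A930024N18Rik at its 5′ end. Whether the counting used the strand is not given in the sources used here, so reads of these partners cannot be told apart from those of the members.

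RefSeq promoter windows on GRCm38.p6, each the 250 bases before a transcription start, were at hand for 7 of the 9 members, 9 windows in all. They were searched on both strands for 4 motifs, none of which contains another: the RBPJ core GTGGGAA, the AP-2 palindrome GCCNNNGGC, the N-box CACNAG that Hes-family repressors can bind, and the AP-1 element TGANTCA. Windows of 3 members that were higher in hormone-sensing luminal than in basal cells (Notch1, Notch3 and Hes6) are shown, with N-box matches in capitals, because each holds at least 1 match and no more than 2 of its bases lie in an annotated exon. They are written 5′ to 3′ on the gene's own strand, which is the minus strand for all 3, at chr2:26503823-26504072, chr17:32166891-32167140 and chr1:91413223-91413472 in the order of the lines.
Notch1: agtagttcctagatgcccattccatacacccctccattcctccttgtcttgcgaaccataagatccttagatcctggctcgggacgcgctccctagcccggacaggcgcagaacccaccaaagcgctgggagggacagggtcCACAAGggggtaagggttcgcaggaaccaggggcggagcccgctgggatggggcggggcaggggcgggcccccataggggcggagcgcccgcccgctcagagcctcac
Notch3: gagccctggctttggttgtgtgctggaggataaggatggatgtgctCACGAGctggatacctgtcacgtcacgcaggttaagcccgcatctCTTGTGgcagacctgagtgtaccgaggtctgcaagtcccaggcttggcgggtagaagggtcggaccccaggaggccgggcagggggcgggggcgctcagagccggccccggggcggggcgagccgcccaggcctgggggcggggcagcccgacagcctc
Hes6: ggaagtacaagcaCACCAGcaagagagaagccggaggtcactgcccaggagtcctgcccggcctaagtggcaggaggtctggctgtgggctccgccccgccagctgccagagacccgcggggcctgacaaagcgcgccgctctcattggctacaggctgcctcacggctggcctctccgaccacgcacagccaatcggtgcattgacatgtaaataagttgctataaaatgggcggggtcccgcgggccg
The first base of the N-box match lies 108 bases before the RefSeq start used for Notch1 and 237 bases before that for Hes6. Notch3 has matches at 204 and 159 bases. The Notch1 and Hes6 windows shown lie inside the GENCODE spans of their genes. Hes6 has another window, at chr1:91414039-91414288 directly before its GENCODE start, which held none of the 4 motifs. An N-box occurs in 36.7% of 32851 mouse promoter windows, and it occurred in 4 of the 9 member windows (the fourth was Notch2). The AP-2 palindrome, found in 13.7% of all windows, occurred in the Jag2 window alone, 13 bases before its start. The AP-1 element, in 6.75% of all windows, occurred in a window of Dll1. The RBPJ core, in 5.42% of all windows, was in none of the 9.

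The receptor Notch1 was highest in luminal progenitor cells, intermediate in hormone-sensing cells and lowest in basal cells. Its level in luminal progenitor cells was 37.3 and 43.6 CPM in corn oil replicates 1 and 2, and 43.8 and 27.4 CPM in 4OHT replicates 1 and 2. In hormone-sensing cells it was 17.7, 21.8, 25.8 and 22.1 CPM in the same order of libraries, and in basal cells 5.68, 8.11, 6.40 and 3.95 CPM. The 3 ranges did not overlap, and the order was the same in 4 of 4 libraries. Basal cells were lower than luminal progenitor cells by a log2 difference of -2.92 (SE 0.17, adjusted p = 5.752e-10, edgeR with Benjamini-Hochberg adjustment over 11135 genes), and hormone-sensing cells were lower than luminal progenitor cells by -1.01 (SE 0.17, adjusted p = 0.0001524).

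Notch3, a receptor best known from mural cells of blood vessels, had a different order. Hormone-sensing cells held 8.48, 12.9, 12.2 and 9.84 CPM, luminal progenitor cells 7.84, 9.42, 6.19 and 5.47 CPM, and basal cells 1.11, 0.918, 1.85 and 1.82 CPM. Both luminal classes lay above every basal value. Basal cells differed from luminal progenitor cells by -2.59 on the log2 scale (SE 0.29, adjusted p = 1.243e-06) and from hormone-sensing cells by -2.94 (SE 0.32, adjusted p = 8.93e-07). Without Acta2 in the basal rule these were -3.38 and -3.82. Between the luminal classes, Notch3 was higher in hormone-sensing cells in 4 of 4 libraries, but the ranges overlapped and the difference of 0.36 did not pass (SE 0.27, adjusted p = 0.296). Markers of pericytes, the mural cells of capillaries, summed to between 4.44 and 8.80 CPM over 7 genes in basal cells and to at most 3.30 CPM in either luminal class.

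Notch2, the third receptor, was measured at 11.0, 10.4, 15.1 and 5.80 CPM in luminal progenitor cells, 9.52, 4.74, 6.91 and 3.95 CPM in basal cells, and 3.86, 3.53, 7.08 and 3.94 CPM in hormone-sensing cells. Luminal progenitor cells were the highest class within each library, although the ranges of all classes overlapped. They exceeded basal cells by 1.01 (log2 difference of basal to luminal progenitor -1.01, SE 0.21, adjusted p = 0.0006651) and hormone-sensing cells by more (log2 difference -1.39, SE 0.28, adjusted p = 0.0007106). Basal and hormone-sensing cells did not pass against each other, at 0.37 (SE 0.30, adjusted p = 0.294).

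Whereas Notch1 and Notch3 were lowest in basal cells, all 3 ligands were highest there in every library, among the 3 epithelial classes. Jag1 was measured at 62.9, 50.6, 64.7 and 40.1 CPM in basal cells, 18.5, 10.0, 11.6 and 7.88 CPM in hormone-sensing cells and 1.65, 3.80, 4.17 and 2.58 CPM in luminal progenitor cells. The 3 ranges did not overlap, so that Jag1 also separated the luminal classes. Basal cells exceeded luminal progenitor cells by a log2 difference of 3.88 (SE 0.22, adjusted p = 4.776e-10) and hormone-sensing cells by 2.20 (SE 0.23, adjusted p = 4.148e-07), and hormone-sensing exceeded luminal progenitor cells by 1.68 (SE 0.28, adjusted p = 0.0001507). The size depended on how strictly classes were separated: with a 10-fold margin between keratin sums the differences to luminal progenitor cells were 4.53 for basal and 2.33 for hormone-sensing cells, and with a margin of 1 they were 2.98 and 0.85, all past the threshold.

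Among the 3 epithelial classes, Jag2 and Dll1 were nearly confined to basal cells by their counts in these libraries. Jag2 was at 11.4, 13.3, 22.2 and 13.8 CPM in basal cells, at most 0.952 CPM in luminal progenitor cells and at most 1.58 CPM in hormone-sensing cells. Its log2 difference was 3.97 against luminal progenitor cells (SE 0.29, adjusted p = 9.754e-09) and 4.13 against hormone-sensing cells (SE 0.41, adjusted p = 2.807e-07), the latter 4.97 without 4OHT replicate 2. The former was 3.27 without Acta2 in the basal rule and 2.42 with a margin of 1. Dll1, a Delta-like ligand, was at 25.6, 14.8, 12.5 and 6.83 CPM in basal cells (207, 97, 74 and 45 UMIs) and at 1.24, 0.661, 1.90 and 0.161 CPM in luminal progenitor cells. The log2 difference between these classes was 3.54 (SE 0.34, adjusted p = 2.262e-07), and it was 4.15 without 4OHT replicate 1, 4.42 with a 10-fold margin and 2.94 with a margin of 1. Hormone-sensing cells of all 4 libraries together held 1 Dll1 UMI against 423 in basal cells. This is a ratio of 110.4 per UMI of depth, with an exact 95% interval from 19.7 to 4372 for counting error alone. The fitted log2 difference, which rests on that 1 UMI, was 6.31 (SE 0.69, adjusted p = 8.593e-07, edgeR). It ranged from 5.68 to 9.34 with each library left out. The luminal classes did not pass against each other for Jag2 (log2 difference -0.16, SE 0.62, adjusted p = 0.895) or for Dll1 (adjusted p = 0.0505), where 30 UMIs stood against 1.

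**Figure D1:**
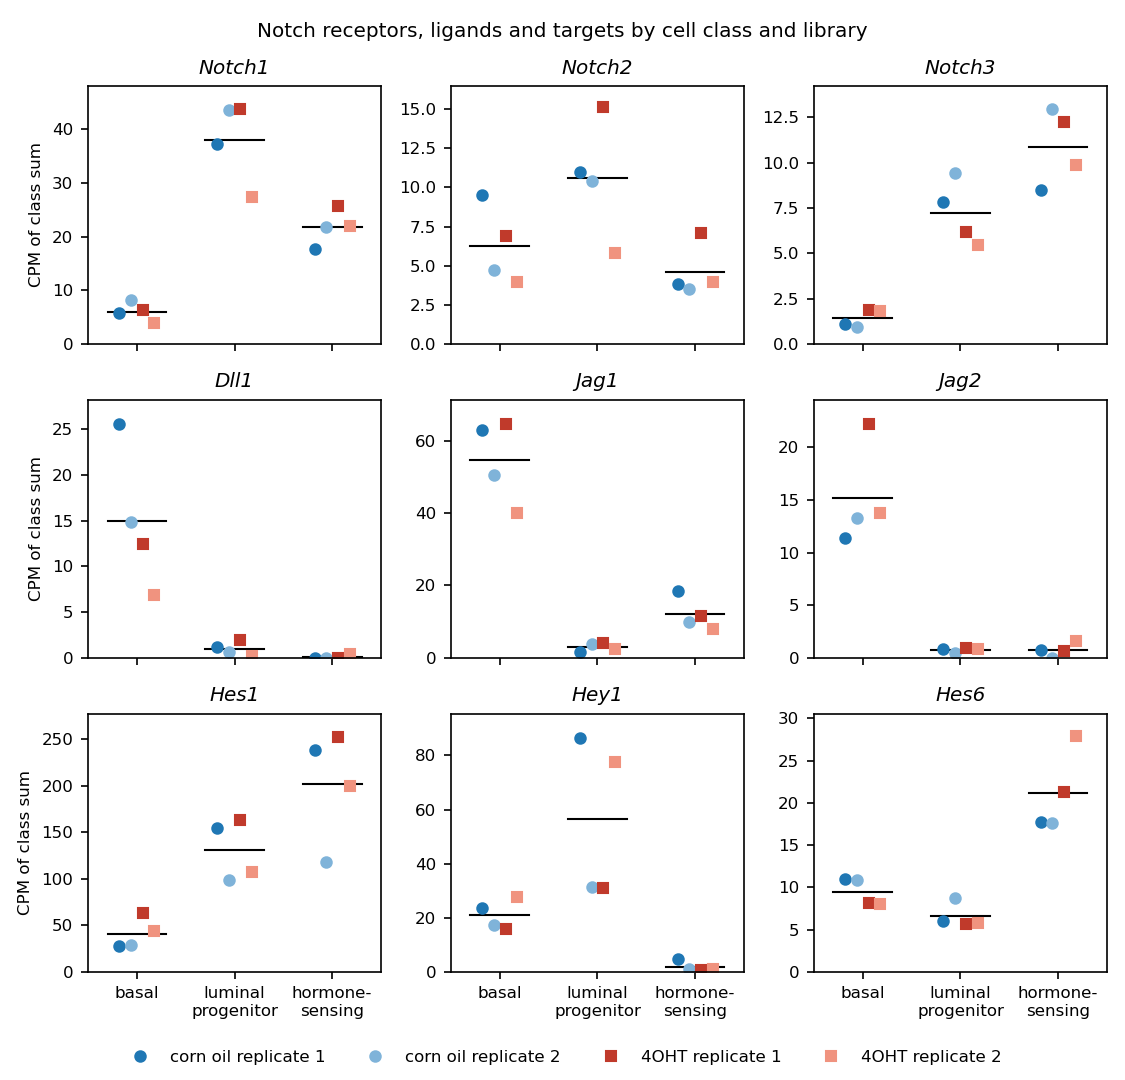
CPM (vertical axes, linear from 0) of the 9 members in the UMI sum of each cell class (horizontal axes), with 1 point per library and a bar at the mean of the 4 libraries. The receptors in the upper row are lowest or near lowest in basal cells, and the ligands in the middle row are highest there. The 3 genes of the Hes and Hey families in the lower row each have an order of their own.

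The 3 genes of the Hes and Hey families did not share one class order. Hes1, the best known transcriptional target of Notch, was at 238, 118, 253 and 200 CPM in hormone-sensing cells, at 155, 98.5, 163 and 107 CPM in luminal progenitor cells, and at 27.7, 28.8, 63.3 and 44.0 CPM in basal cells. Every basal value lay below every luminal value. The log2 difference of basal cells was -1.98 against luminal progenitor cells (SE 0.18, adjusted p = 8.846e-08) and -2.32 against hormone-sensing cells (SE 0.18, adjusted p = 1.676e-08). Hormone-sensing cells were above luminal progenitor cells in 4 of 4 libraries, by 0.35 (SE 0.17, adjusted p = 0.106), which did not pass.

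Hey1, a repressor of the related Hey family, was high in luminal progenitor cells and nearly at 0 in hormone-sensing cells. Luminal progenitor cells held 86.6, 31.2, 31.2 and 77.4 CPM, basal cells 23.5, 17.4, 15.7 and 27.8 CPM, and hormone-sensing cells 4.63, 1.18, 0.644 and 1.18 CPM. The ranges of the 3 classes did not overlap, and corn oil replicate 1 and 4OHT replicate 2 were the higher pair of libraries both in luminal progenitor and in basal cells. Hormone-sensing cells differed from luminal progenitor cells by -5.29 on the log2 scale (SE 0.34, adjusted p = 5.903e-09), from 12 UMIs against 1561. Basal cells were below luminal progenitor cells by a log2 difference of -1.59 (SE 0.19, adjusted p = 3.346e-06) and above hormone-sensing cells by 3.70 (SE 0.37, adjusted p = 3.58e-07; 4.39 without corn oil replicate 1). Hes1 and Hey1 therefore stood in opposite orders between the 2 luminal classes by their levels, with only the Hey1 difference past the threshold.

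Hes6, a relative of Hes1 that is known to counteract it, was highest in hormone-sensing cells. It was at 17.7, 17.7, 21.3 and 28.0 CPM there, at 11.0, 10.9, 8.09 and 8.05 CPM in basal cells and at 6.06, 8.76, 5.71 and 5.80 CPM in luminal progenitor cells. Hormone-sensing values lay above all others. They exceeded luminal progenitor cells by 1.47 on the log2 scale (SE 0.21, adjusted p = 3.523e-05), and basal cells differed from them by -1.20 (SE 0.21, adjusted p = 0.0001153). Basal and luminal progenitor cells did not pass (0.27, SE 0.20, adjusted p = 0.256).

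In all, 8 of 9 members passed between basal and luminal progenitor cells, 3 of them higher in basal cells (the ligands) and 5 lower. The classes differed widely, and 56.1% of the 11135 genes tested passed as well, 29.5% higher in basal cells and 26.6% lower. Between basal and hormone-sensing cells 8 of 9 members passed, 4 in each direction, against 59.8% of all genes (32.4% higher and 27.3% lower). Between hormone-sensing and luminal progenitor cells 5 of 9 passed, 2 higher and 3 lower, against 46.4% of all genes (21.9% higher and 24.6% lower). The sizes were larger than those of most genes: the median absolute log2 difference was 2.59 for the members and 0.59 for all genes in the first comparison, 2.32 and 0.76 in the second, and 1.39 and 0.59 in the third. With Dll1 set to the end of its counting interval nearest to no difference, the median of the third comparison was 1.01 and that of the second stayed at 2.32. These medians describe the set and were not tested.

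**Figure D2:**
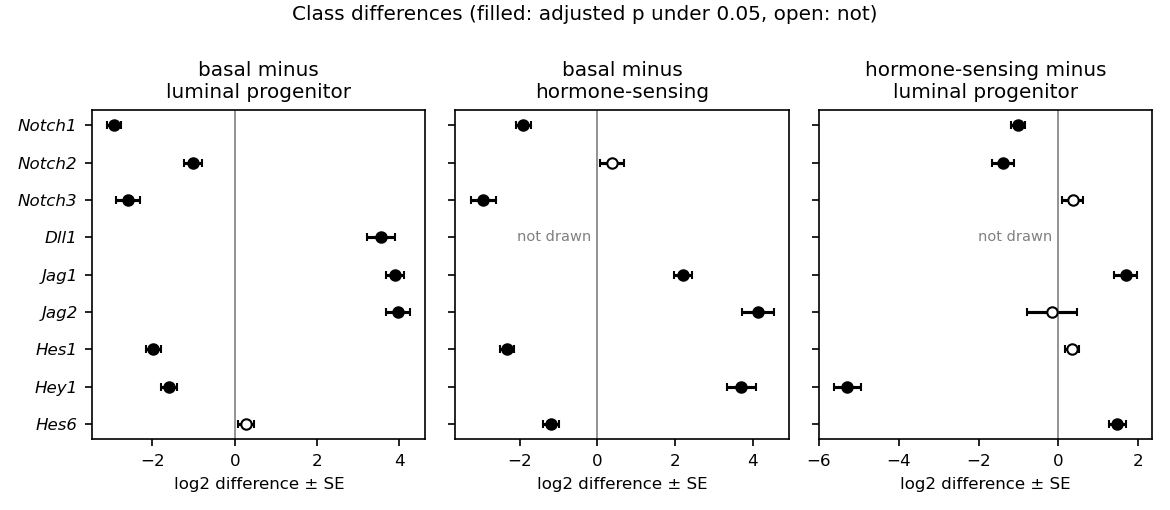
Log2 difference ± SE (horizontal axes) of each member between 2 cell classes in the fit over 12 class sums of 4 libraries, with filled points for adjusted p under 0.05. Dll1 is not drawn where hormone-sensing cells held only 1 UMI. Notch1, Notch3 and Hes1 lie left of 0 and Jag1 and Jag2 right of it in both comparisons of basal cells, whereas Hey1 changes side.

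Endothelial-like cells, a class of other origin, were too few for a test (6, 76, 44 and 134 cells in the 4 libraries). Leaving out the library with 6 cells, they held 58.9, 66.2 and 63.7 CPM of Notch1, 46.2, 39.7 and 54.2 CPM of Jag1 and 164, 232 and 156 CPM of Hes1. Notch3 had no UMI there. The other 2 ligands were also found in endothelial-like cells of the same libraries, on at most 17 UMIs per library. Dll1 ranged from 0 to 54.2 CPM and Jag2 from 13.25 to 25.49 CPM. Endothelial markers, 4 of which defined that class, summed over 8 genes to between 10.6 and 91.4 CPM in the 3 epithelial classes and to between 3550 and 5180 CPM in endothelial-like cells.

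The same split was seen as the share of single cells with a UMI. Each cell was thinned to 2000 UMIs first, and shallower cells were left out, so that depth did not set the share. A UMI of at least 1 ligand was found in 16.3%, 13.1%, 16.7% and 9.84% of basal cells in corn oil replicates 1 and 2 and 4OHT replicates 1 and 2. In luminal progenitor cells the shares were 0.721%, 1.00%, 0.798% and 0.924%, and in hormone-sensing cells 3.31%, 2.45%, 2.54% and 2.06%. Basal shares were the highest in each library and luminal progenitor shares the lowest. How much of the luminal progenitor share is background was not tested. A UMI of at least 1 receptor was found in 9.14%, 12.3%, 11.5% and 6.77% of luminal progenitor cells, in 7.95%, 7.36%, 8.90% and 6.65% of hormone-sensing cells and in 2.87%, 2.46%, 2.67% and 1.67% of basal cells. The luminal classes overlapped and basal cells lay below both. Without thinning, the mean shares with a ligand UMI were 23.3% in basal, 2.07% in luminal progenitor and 7.71% in hormone-sensing cells, at median depths from 2828 to 8258 UMIs per cell.

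**Figure D3:**
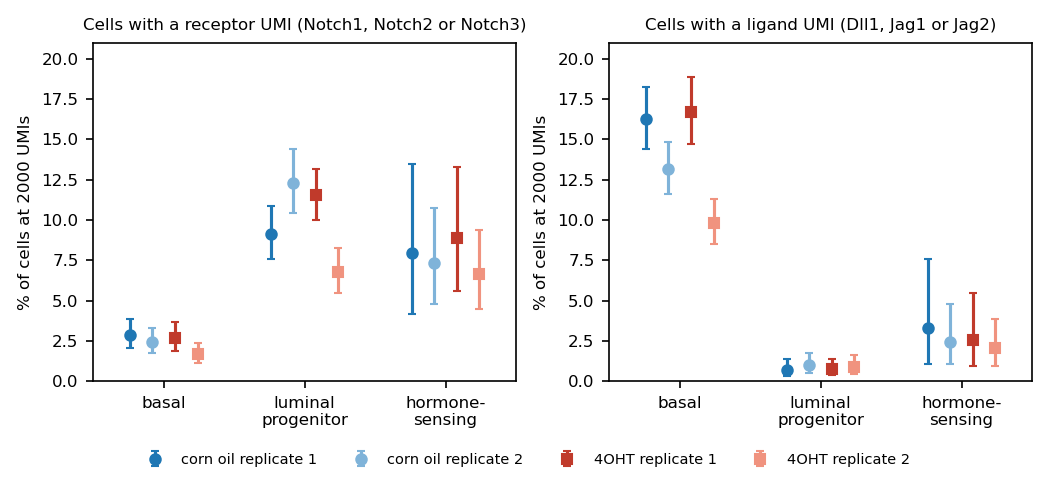
Percent of cells with at least 1 receptor UMI (left) or ligand UMI (right) after thinning to 2000 UMIs per cell, for each class and library, with exact 95% binomial intervals that cover counting error alone. Ligand shares reach 16.7% in basal cells and at most 3.31% elsewhere, and receptor shares reach 2.87% in basal cells and 12.3% in luminal progenitor cells.

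Jag1 and Hes1 had the class order of their levels. Jag1 was found in a mean of 8.88% of basal cells (SD 1.68, n = 4 libraries), 2.43% of hormone-sensing cells (SD 0.64) and 0.561% of luminal progenitor cells (SD 0.253). Hes1 was found in 25.9% of hormone-sensing cells (SD 5.56), 15.8% of luminal progenitor cells (SD 2.80) and 6.20% of basal cells (SD 1.96). Dll1 was found in none of the hormone-sensing cells after thinning, which allows a share of cells with a UMI at that depth of up to 0.688% in 4OHT replicate 2 (436 cells) and up to 1.99% in corn oil replicate 1 (151 cells). Its 1 UMI before thinning was in 4OHT replicate 2. Notch2, whose levels did not pass between these 2 classes, was found in about the same share of hormone-sensing (mean 1.27%, SD 0.296) and basal cells (1.22%, SD 0.615).

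Detection in the same cell was low for receptors and ligands. In basal cells 28 of 6321 thinned cells held both a receptor and a ligand UMI, and 21.3 would hold both if the genes were detected independently within each library. Jag1 and Dll1 were found together in 21 basal cells, against 15.0 by the same product of shares. Notch1 and Hes1 were found together in 78 luminal progenitor cells against 58.7, and in 6 hormone-sensing cells against 12.9. This was not particular to Notch1: luminal progenitor cells held Hes1 with Hey1 in 85 cells against 65.1, and with Hes6 in 17 against 8.93. Hes1 and Fos, an immediate early gene known to rise when tissue is dissociated, were found together in 210 basal cells against 107.2 and in 235 luminal progenitor cells against 127.6, but in 76 hormone-sensing cells against 64.3. These are counts of cells from 4 mice and carry no test.

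Of the 48 other genes of the pathway that were listed, 36 were counted highly enough to be tested between classes. Between basal and luminal progenitor cells 13 were higher in basal cells, 9 were lower and 14 did not pass, so that 61.1% passed against 56.1% of all genes. Between basal and hormone-sensing cells the counts were 15, 10 and 11 (69.4% against 59.8%). Between hormone-sensing and luminal progenitor cells 5 were higher, 9 lower and 22 did not pass (38.89% against 46.4%). These shares are near those of all genes.

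Among other ligands and targets, 4 of 12 were tested. The non-canonical ligands Dlk1 and Dlk2, which lack the domain that activates the receptor, were basal like the 3 canonical ones. Dlk2 was at 9.64, 15.0, 10.9 and 17.0 CPM in basal cells and at most 0.771 CPM in either luminal class (log2 difference to luminal progenitor cells 4.35, SE 0.28, adjusted p = 1.522e-09). Dlk1 was at 8.40, 4.44, 4.38 and 4.25 CPM in basal cells and had 4 UMIs in luminal progenitor cells, a log2 difference of 4.79 (SE 0.53, adjusted p = 4.149e-06). It had no UMI in hormone-sensing cells, where basal cells were at least 13.1-fold higher when 3 UMIs over the class are taken as the floor. Nrarp, a feedback inhibitor and Notch target, was lower in basal cells by -2.70 against luminal progenitor (SE 0.39, adjusted p = 2.156e-05) and by -2.71 against hormone-sensing cells (SE 0.47, adjusted p = 0.0001223), on 14 basal UMIs. Dll4 and Notch4 were not tested. Dll4 was at 450, 114, 86.1 and 82.8 CPM in endothelial-like cells, the 450 from the library with only 6 such cells. It was at most 0.322 CPM in the 3 epithelial classes.

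Of the 9 genes of the nuclear complex, 4 were higher and 1 lower in basal than in luminal progenitor cells. Rbpj, the DNA-binding partner of the receptor, was highest in the layer with the lowest Notch1 and Hes1: 155, 108, 161 and 122 CPM in basal cells, 54.2, 51.4, 54.8 and 45.1 CPM in luminal progenitor cells and 25.4, 35.3, 22.5 and 20.1 CPM in hormone-sensing cells. The ranges did not overlap. The log2 differences of Rbpj were 1.14 between basal and luminal progenitor (SE 0.16, adjusted p = 1.652e-05), 2.37 between basal and hormone-sensing (SE 0.19, adjusted p = 2.166e-08) and -1.23 between hormone-sensing and luminal progenitor cells (SE 0.19, adjusted p = 6.018e-05). Maml2, a coactivator of the Mastermind family, had the same order with log2 differences of 1.13, 2.93 and -1.80, all of which passed (largest adjusted p = 0.0001419). Maml3 was higher in basal than in luminal progenitor cells by 1.22, and the acetyltransferase Kat2b lower by a log2 difference of -0.76.

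The cutting machinery was mixed. Adam10, a sheddase that cuts the receptor after ligand binding, was at 87.9, 83.5, 95.3 and 76.0 CPM in hormone-sensing cells. It ranged from 9.52 to 19.3 CPM in luminal progenitor cells and from 7.59 to 14.1 CPM in basal cells. Hormone-sensing cells stood above both other classes without overlap, by 2.52 against luminal progenitor cells (SE 0.19, adjusted p = 3.768e-08), and the log2 difference of basal cells to them was -3.01 (SE 0.20, adjusted p = 2.156e-09). Psen2, a catalytic subunit of gamma-secretase, was also higher in hormone-sensing than in luminal progenitor cells (2.03, SE 0.36, adjusted p = 0.0002521). The subunits Aph1b and Aph1c were higher in basal than in luminal progenitor cells, by 1.81 and 1.21, while Aph1a and Psenen were lower, by log2 differences of -1.41 and -0.79. Aph1b and Aph1c are close copies, and the counting could have split their reads.

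Lfng, the Fringe enzyme that adds sugars to the receptor and shifts its choice of ligand, was scarce in luminal progenitor cells, with 6 UMIs against 75 in basal and 22 in hormone-sensing cells. It was higher in basal than in luminal progenitor cells by 3.32 (SE 0.46, adjusted p = 1.482e-05) and in hormone-sensing than in luminal progenitor cells by 3.48 (SE 0.55, adjusted p = 8.603e-05). Poglut1, which adds glucose to the receptor, was higher in basal cells than in luminal progenitor cells by 1.95 and than in hormone-sensing cells by 1.47. Among 9 tested genes of endocytosis and turnover, Numbl, a relative of the Notch inhibitor Numb, was higher in basal than in luminal progenitor cells by 3.29 (SE 0.29, adjusted p = 7.733e-08). Numb itself was lower in hormone-sensing than in luminal progenitor cells, by a log2 difference of -0.68 (SE 0.24, adjusted p = 0.02861). Among Deltex-family genes Dtx3 was higher in basal than in luminal progenitor cells by 1.36, and Dtx4 and Dtx3l were lower in basal than in luminal progenitor cells by log2 differences of -2.57 and -1.19, all past the threshold.

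**Figure D4:**
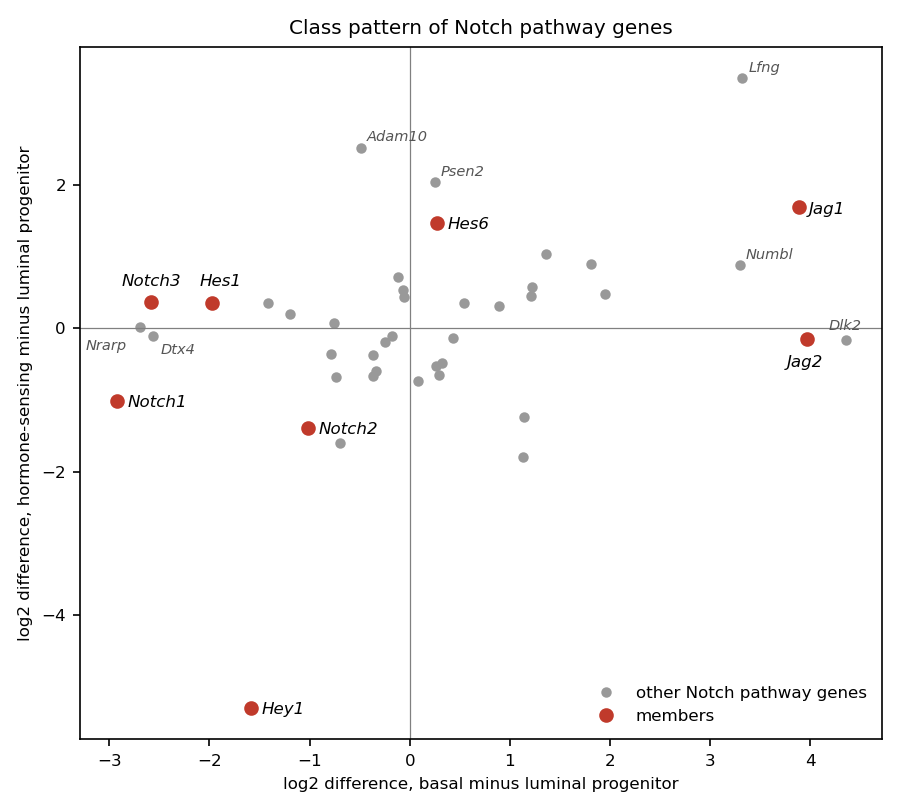
Log2 difference between basal and luminal progenitor cells (horizontal axis) against that between hormone-sensing and luminal progenitor cells (vertical axis) for the members (red) and the other tested pathway genes (grey, named beyond 2 on either axis). Both axes share the luminal progenitor sums, and Dll1 and Dlk1 are left out because hormone-sensing cells held 1 and 0 UMIs. Jag1, Jag2, Dlk2, Numbl and Lfng lie far right, Notch1, Notch3, Hes1, Nrarp and Dtx4 far left, and Hey1 at the bottom.

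By the pattern of log2 CPM over the 12 class sums, each member was set beside the 4141 genes whose mean CPM reached 20. Pearson correlations were highest with Slfn2 for Notch1 (0.986), Rbm47 for Notch3 (0.978) and Pdcd6ip for Notch2 (0.943). For the ligands they were highest with Oat for Jag1 (0.983), Vim for Jag2 (0.982) and Map3k20 for Dll1 (0.984). Hes1 was most like Rbm3 (0.958), Hey1 most like Nudt4 (0.965), with Pim1 next at 0.954, and Hes6 most like Pgap2 (0.965). The 12 sums share 4 libraries and 3 classes, so these values mostly describe class differences.

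The treatment comparison was preceded by a look at the targeted gene. Tfap2c was at 389 and 285 CPM in basal cells of the corn oil replicates and at 285 and 325 CPM in those labelled 4OHT, a log2 difference of -0.08 (SE 0.25, adjusted p = 0.9995). A 3′ count need not see the loss of an internal exon, and the labels do not say which exons are floxed, so this value does not check the labels. The word "labelled" is kept below for that reason. Between the treatments 0 of 10788 genes passed in basal cells (465 at an unadjusted p under 0.05, and 38 with DESeq2), 0 of 10120 in luminal progenitor cells (166, and 1 with DESeq2) and 1 of 7589 in hormone-sensing cells (240, and 7 with DESeq2). The 1 gene was Ctsr, a cathepsin (2 and 6 UMIs in the corn oil libraries, 91 and 130 in those labelled 4OHT, log2 difference 4.29, SE 0.46, adjusted p = 0.03835 by edgeR), named after its value was seen. With adjustment, 0 of 9, 0 of 7 and 0 of 5 tested members passed, against 0%, 0% and 0.0132% of all genes.

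In basal cells 2 members had an unadjusted p under 0.05, which 4.31% of all genes had. Dll1 was at 25.6 and 14.8 CPM in the corn oil libraries and at 12.5 and 6.83 CPM in those labelled 4OHT. Its groups did not overlap, and its log2 difference was -1.04 (SE 0.37, unadjusted p = 0.02724, adjusted p = 0.9995 by edgeR). Hes1 was at 27.7 and 28.8 CPM in the corn oil libraries and at 63.3 and 44.0 CPM in those labelled 4OHT, without overlap, a log2 difference of 0.96 (SE 0.25, unadjusted p = 0.007898, adjusted p = 0.9995 by edgeR). Neither passed the adjusted threshold. Without each library in turn the log2 difference ranged from -1.41 to -0.65 for Dll1 and from 0.79 to 1.12 for Hes1.

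The other basal members differed by less relative to their errors. Notch3 stood at 0.89 (SE 0.51), Jag2 at 0.57 (SE 0.30), Hey1 at 0.17 (SE 0.38), Jag1 at -0.09 (SE 0.27), Notch2 at -0.37 (SE 0.43), Notch1 at -0.39 (SE 0.39) and Hes6 at -0.39 (SE 0.29). The groups did not overlap for 5 of 9 members in basal cells, 2 of 7 in luminal progenitor cells and 2 of 5 in hormone-sensing cells, against 30.7%, 24.9% and 30.5% of all genes tested. The median absolute log2 difference in basal cells was 0.39 for the members and 0.23 for all genes. It was 0.17 and 0.19 in luminal progenitor cells, and 0.34 and 0.24 in hormone-sensing cells. None of these medians was tested.

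Other gene lists differed in summed level between the treatment labels in basal cells. The stress list of immediate early and heat shock genes summed to 5256 and 6211 CPM in the corn oil libraries and to 7261 and 6798 CPM in those labelled 4OHT, with all 13 genes detected. Its genes did not move alike. Fos was at 171 and 298 CPM in the corn oil libraries and at 530 and 535 CPM in those labelled 4OHT. Hspa1a was at 1403 and 1564 against 1786 and 1089 CPM, and Atf3 at 329 and 531 against 549 and 500 CPM. The interferon list summed to 658 and 1328 CPM against 331 and 227 CPM. Endothelial markers in basal cells summed to 14.1 and 50.5 CPM against 10.6 and 59.4 CPM, which followed the replicate number and not the treatment, and Cdh5 was at 0 in 2 libraries. Cells in no class made up 15.96% and 17.2% of the corn oil libraries and 24.3% and 22.1% of those labelled 4OHT. The part of these differences in the values of Hes1 and Dll1 was not tested.

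In luminal progenitor cells no tested member had an unadjusted p under 0.05, which 1.64% of all genes had. The log2 differences were -0.10 for Notch1, 0.05 for Notch2, -0.47 for Notch3, 0.42 for Jag1, 0.17 for Hes1, -0.02 for Hey1 and -0.26 for Hes6, and Dll1 and Jag2 were too low to be tested. Hey1 in that class went from 31.2 to 86.6 CPM within the corn oil group and from 31.2 to 77.4 CPM within the group labelled 4OHT, a spread within groups that exceeded the difference between them. In hormone-sensing cells Notch1 stood at 0.22, Notch3 at -0.04, Jag1 at -0.58, Hes1 at 0.34 and Hes6 at 0.45, with no unadjusted p under 0.05, which 3.16% of all genes had, and the smallest adjusted p was 0.9997. Fibroblast markers in that class summed to 243 and 54.1 CPM in the corn oil libraries and to 1349 and 238 CPM in those labelled 4OHT, of which Dcn alone gave 243, 50.6, 1325 and 237 CPM, and their part in these values was not tested. With 2 libraries a group the standard errors of single members in these comparisons were wide, and differences well beyond 1 SE, such as those of Hes1 and Dll1 in basal cells, did not pass.

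**Figure D5:**
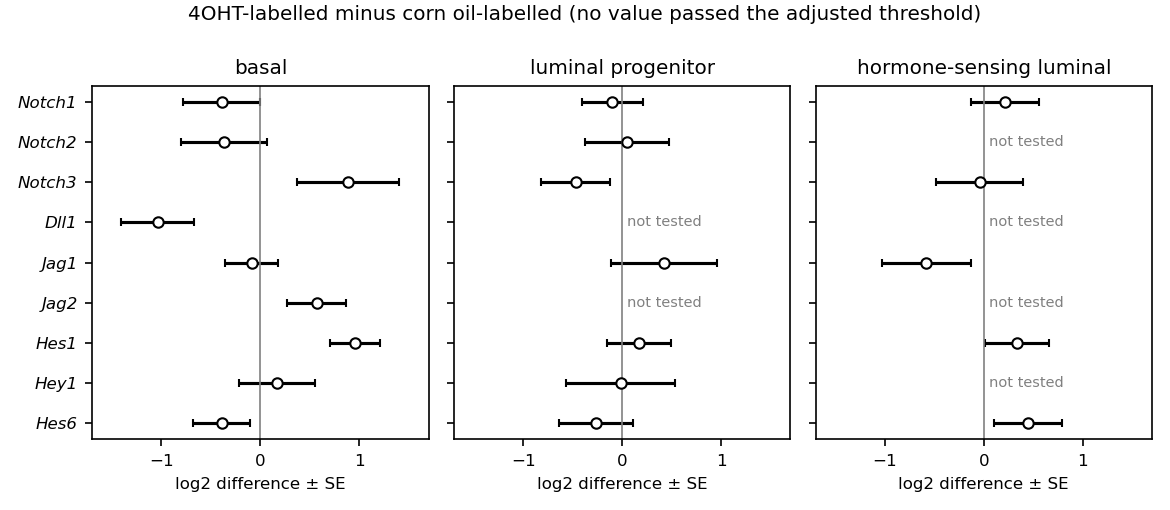
Log2 difference ± SE between the libraries labelled 4OHT and those labelled corn oil (horizontal axes, 2 against 2) for each member in basal, luminal progenitor and hormone-sensing cells. Dll1 at -1.04 and Hes1 at 0.96 in basal cells lie farthest from 0, and no value passed after adjustment.

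Because the Krt5 promoter restricts where Cre is made, the difference of the effect between basal and luminal progenitor cells was tested on its own. Of 11434 genes 0 passed (429 at an unadjusted p under 0.05, and 1 with DESeq2). The difference was 0.74 for Hes1 (SE 0.31, unadjusted p = 0.03814), 1.33 for Notch3 (SE 0.57, unadjusted p = 0.04229) and -1.21 for Dll1 (SE 0.72), each with an adjusted p of 1 by edgeR, whereas 3.75% of all genes fell under 0.05 before adjustment. Of the 48 other pathway genes, 35 were tested for treatment in basal cells, 32 in luminal progenitor and 23 in hormone-sensing cells, and none passed by edgeR after adjustment (unadjusted p under 0.05 for 1, 0 and 1). The 1 gene was Dtx3l both in basal cells (log2 difference -0.72, unadjusted p = 0.04458) and in hormone-sensing cells (-0.996, unadjusted p = 0.009292), named after its values were seen.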

How the data were processed

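Mammary epithelial cells of 4 mice were counted in 1 library each. What the authors deposited are UMI counts without scaling. Per the submitters' processing notes, Cell Ranger 3.0.1 produced them on an mm10 reference. Strand and intron settings are not given in the sources used here. The labels state the length of injection as 5 days in 1 field and as a week in another, and no result rests on it.

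Cells with at least 1000 UMIs were classed as basal when Krt5, Krt14, Krt17 and Acta2 summed to at least 5 UMIs and to over 3 times the sum of Krt8, Krt18 and Krt19, and as luminal by the reverse. Luminal cells were hormone-sensing when Ly6d, Fxyd2 and Gpx3 summed to at least 3 UMIs and above Wfdc18, Csn3 and Ltf. Of the rest, cells with at least 3 UMIs of Pecam1, Cdh5, Egfl7 and Cldn5 were endothelial-like, and others with at least 3 of Ptprc, Cd3d, Cd3e, Cd79a, C1qa and Tyrobp leukocyte-like. Between 15.96% and 24.3% of cells per library met no rule and stayed out. Doublets were kept: the automatic threshold of Scrublet (in scanpy 1.11.5) marked from 0.0721% to 0.52% of cells, too few to be of use, so an alternative dropped the 101, 150, 185 and 246 highest-scoring cells instead. Median UMIs per cell ranged from 2828 to 8258 over the 3 epithelial classes and 4 libraries.

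Counts were summed per library and class and tested with edgeR 4.0.16 (R 4.3.3): TMM factors, filterByExpr, the quasi-likelihood F-test and Benjamini-Hochberg adjustment over all genes tested, threshold 0.05. Class comparisons used 1 fit of 12 sums with library as a block. The treatment was fitted within each class without a block. The labels name 2 mice per condition, so the treatment p-values within a class measure the spread between mice handled as single libraries. The difference of effect was also fitted with library as a block. P-values of that test and of the class comparisons measure how class differences vary between libraries. CPM is the count scaled to its class sum. Intervals (exact, 95%) and the floor of 3 UMIs cover counting error only. Alternatives were DESeq2 1.42.0, other size factors and filters, other cell and class rules, the replicate number as a block, and each library left out. The test was checked on simulated counts. Correlations with other genes used log2(CPM + 1). Promoter windows are those of RefSeq on GRCm38.p6, and gene positions those of GENCODE M21. The annotation release used for counting is not given in the sources used here.

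The members and the lists were chosen with earlier results of these data known. Always described were the 9 members; of the other pathway genes, up to 4 per group and comparison with the largest difference among those passing were eligible to be named; Ctsr and, for treatment, Dtx3l were added after their values were seen, as were the levels given for Dll4.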

Additional observations from a re-analysis of the deposited data

How the results depend on the processing

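All 21 class differences of members that passed kept their direction and their call in 284 of 284 alternatives (other size factors, filters, DESeq2, cell and class rules, each library left out), although some sizes moved by over 1.5 times, as given beside them. Of the 6 that did not pass, Hes6 between basal and luminal progenitor cells turned to -0.17 when Acta2 was left out of the basal sum, and Jag2 between hormone-sensing and luminal progenitor cells ranged from -0.99 to 0.0308 with each library left out. Dll1 in the latter comparison passed under 6 of its alternatives (smallest adjusted p = 0.009949). Hes1 passed there under 3 alternatives (smallest adjusted p = 0.03582) and Jag2 under 1, with a margin of 1 between keratin sums (adjusted p = 0.04387), an alternative chosen after seeing the data. The cause was not tested.

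Genes called between classes fell from 6246, 6655 and 5170 to 2642, 2936 and 2488 with only genes of at least 20 CPM, where 4141 genes were tested. With each library left out these counts ranged from 5373 to 5900, 5811 to 6342 and 4157 to 4802. Genes called for treatment in basal, luminal progenitor and hormone-sensing cells and for the difference of effect were 0, 0, 1 and 0. They were 93, 39, 59 and 55 without a filter on low counts and 38, 1, 7 and 1 with DESeq2. With each library left out, where 1 arm holds a lone library assumed to vary like the others, they ranged from 17 to 127, 31 to 64, 4 to 80 and 0 to 63. In hormone-sensing cells the count was 0 with genes of at least 20 CPM, with cells of at least 2000 UMIs and with a margin of 1. In luminal progenitor cells it was 1 with a 10-fold margin.

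With the replicate number as a block the counts were 167, 9 and 3, and 0 for the difference of effect. Dll1 at -1.03 (adjusted p = 0.03124, edgeR) and Hes1 at 0.95 (adjusted p = 0.02505) then passed in basal cells, and Notch2 in luminal progenitor cells turned to -0.0503. Same-numbered libraries deviated together (correlation over genes 0.56, 0.32 and 0.22 in the 3 classes), but 2 pairs do not show that the numbers pair the mice.

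Of 300 alternatives for the 21 treatment values of members, 274 kept direction and call and 24 turned. With each library left out the log2 difference ranged in basal cells from -0.71 to 0.16 for Notch2, -0.35 to 0.15 for Jag1 and -0.42 to 0.59 for Hey1. In luminal progenitor cells it ranged from -0.40 to 0.15 for Notch1, -0.73 to 0.53 for Notch2, -0.028 to 1.09 for Jag1, -0.14 to 0.59 for Hes1 and -0.90 to 0.97 for Hey1. In hormone-sensing cells it ranged from -0.35 to 0.42 for Notch3 and -0.0188 to 0.83 for Hes1, and for the difference of effect from -1.79 to 0.89 for Dll1. Hes1 passed for that difference without corn oil replicate 2 (1.19, adjusted p = 0.04697). A 10-fold margin gave -0.27 for Jag1 and 0.0397 for Hey1 in luminal progenitor cells and 0.0461 for Notch3 in hormone-sensing cells. Leaving out the highest doublet scores gave -0.0096 for Jag1 and 0.00061 for Notch3 in those classes. Cells of at least 2000 UMIs gave 0.0022 for Hey1 and a margin of 1 gave -0.033 for Notch2, both in luminal progenitor cells. Without Acta2 in the basal sum, Jag1 in basal cells was 0.39 and the difference of effect for Notch3 -0.18.

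Shares of cells move with depth. With a receptor UMI they averaged 4.95%, 22.1% and 20.3% in basal, luminal progenitor and hormone-sensing cells without thinning and 1.28%, 5.34% and 4.74% at 1000 UMIs. With a ligand UMI they were 23.3%, 2.07% and 7.71% without thinning, and 8.19%, 0.454% and 2.32% at 1000 UMIs. The hormone-sensing libraries then ranged from 0.447% to 4.64%, the lowest within the luminal progenitor range of 0.278% to 0.618%, so that these 2 classes were no longer apart.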

Other observations

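Cells that met no class rule, 3704 in all, were tested nowhere. In corn oil replicates 1 and 2 and 4OHT replicates 1 and 2 they held 61.7, 33.1, 36.4 and 32.9 CPM of Jag1, in each library below the basal value and above those of both luminal classes. Notch1 in the same cells was at 21.8, 27.2, 14.7 and 9.25 CPM, above every basal value, and Hes1 was at 54.2, 79.0, 69.1 and 48.3 CPM, within or above the basal range. Whether they are doublets or cells between classes cannot be told apart here.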
